A study of Homo sapiens with 36 samples.

Results

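PHF19 regions away from promoters are the DNA stretches that PHF19 occupied in DU145 cells away from the start sites of protein-coding genes. They were the regions of the deposited PHF19 table, which compares PHF19 ChIP with input in control cells, that overlapped no stretch of 2.5 kb to either side of a protein-coding transcript start, in the basic transcript set of the GENCODE annotation on hg19. Of 1245 regions in all, 450 met this rule and are called distal here, and the other 795 are called promoter regions. The nearest regions beyond the limit lay 2506 bp from the SOX2 start and 2530 bp from that of AC127496.1, and the farthest ones within it lay 2475 bp from the LHX3 start and 2418 bp from that of MNX1.

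DU145 is an established human prostate cancer cell line. Control cells carried the hairpin shCTR and depleted cells the hairpin shPHF19L#4 against the long PHF19 isoform, and all cells were of the same line. ChIP-seq, which sequences the DNA pulled down with an antibody, was made for PHF19, EZH2, SUZ12, H3K27me3 and MTF2 in 2 libraries per condition, numbered as replicates 1 and 2. Peak lists, made per library by the authors, were used for all 5 targets in shCTR, and for H3K27me3 and MTF2 also in shPHF19L#4. No list states how many reads lie behind it, and depth is therefore unknown. With 2 libraries against 2, an exact permutation test cannot fall below p = 0.333, so no test was made and values are given list by list. Regions are not replicates of a condition. A region is said to carry a target when a peak of each replicate list overlaps it by at least 1 bp.

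Polycomb repressive complex 2, or PRC2, holds the methyltransferase EZH2 and the subunit SUZ12 and places methyl groups on lysine 27 of histone H3, the mark H3K27me3 of silent developmental genes. PHF19 and MTF2 are Polycomb-like proteins, accessory subunits that bind DNA rich in unmethylated CpG dinucleotides and help bring the complex to CpG islands. Many CpG islands lie at gene starts, and those that do not are often called orphan islands.

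The first set of sequences shows a feature shared by the 4 distal regions with the most PHF19 over input, of which 3 are given. Each is the 150 bp of the region with the most copies of a 12-base word, AAAAAGCCGCGG, whose copies are in capitals. All are the plus strand of hg19 between protein-coding genes: ZNF92 is chr7:64974150-64974299, FOXD4L4 is chr9:70402938-70403087 and FOXD4L5 is chr9:69785375-69785524, named by the nearest protein-coding start.
ZNF92: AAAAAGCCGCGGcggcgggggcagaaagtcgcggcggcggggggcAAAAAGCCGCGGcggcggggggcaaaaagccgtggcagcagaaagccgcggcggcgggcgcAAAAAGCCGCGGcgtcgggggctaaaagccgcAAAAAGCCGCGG
FOXD4L4: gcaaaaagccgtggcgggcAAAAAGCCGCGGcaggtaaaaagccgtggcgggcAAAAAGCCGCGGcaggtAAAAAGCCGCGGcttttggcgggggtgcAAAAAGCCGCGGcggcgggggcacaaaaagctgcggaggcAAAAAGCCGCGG
FOXD4L5: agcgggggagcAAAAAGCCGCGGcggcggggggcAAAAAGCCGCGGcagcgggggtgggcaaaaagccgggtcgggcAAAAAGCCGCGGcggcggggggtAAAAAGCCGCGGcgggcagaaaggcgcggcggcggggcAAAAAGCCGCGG

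The second set shows 4 other distal regions, each below the distal median of CpG density, as the 150 bp with the most CpG, on the plus strand with each CpG in capitals. ZIC2 (chr13:100648158-100648307, between protein-coding genes) had the most PHF19 over input of the regions without the word. EPHB3 (chr3:184209155-184209304, between protein-coding genes) is nearest to a gene of an Eph receptor, NPAS3 (chr14:33637001-33637150) is intronic, and PTPN3 (chr9:112186683-112186832), also intronic, is from the distal region with the fewest CpG.
ZIC2: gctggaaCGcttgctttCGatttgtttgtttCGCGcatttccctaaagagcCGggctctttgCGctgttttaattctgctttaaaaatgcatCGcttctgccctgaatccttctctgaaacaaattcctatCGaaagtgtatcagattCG
EPHB3: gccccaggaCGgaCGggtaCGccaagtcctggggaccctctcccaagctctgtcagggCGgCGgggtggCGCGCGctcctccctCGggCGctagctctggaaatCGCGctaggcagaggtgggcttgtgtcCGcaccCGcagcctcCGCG
NPAS3: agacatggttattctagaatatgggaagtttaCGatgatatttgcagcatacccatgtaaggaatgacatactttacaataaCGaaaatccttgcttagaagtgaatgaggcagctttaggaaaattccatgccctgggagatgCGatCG
PTPN3: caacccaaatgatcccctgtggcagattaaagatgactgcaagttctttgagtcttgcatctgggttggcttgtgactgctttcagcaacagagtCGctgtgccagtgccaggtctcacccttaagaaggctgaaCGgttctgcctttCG

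The distal regions lay mostly between protein-coding genes. Between protein-coding genes were 282 of the 450 (62.7%), and 168 (37.3%) overlapped a gene body: 108 in introns only, 51 over a coding exon and 9 over an untranslated exon. The median distance to the nearest protein-coding start was 26261 bp, 134 regions (29.8%) were within 10 kb of one and 112 were at least 100 kb away. Being distal to the protein-coding starts of the basic set did not mean being away from every start: 176 regions (39.1%) lay within 2.5 kb of another annotated transcript start, 100 of them nearest to one of a long non-coding RNA and 42 to one of a protein-coding gene. A long non-coding RNA gene was overlapped by 143 regions, and 161 of the 450 (35.8%) overlapped neither a protein-coding nor a long non-coding RNA gene. In 78 regions a promoter PHF19 region stood within 10 kb.

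Distal regions were narrower and held fewer CpG than promoter regions. The median width was 1880 bp (738 to 9788) against 2483 bp for promoter regions. The median density was 3.23 CpG per 100 bp, with an interquartile range from 1.49 to 5.10, against a median of 5.84 for promoter regions, and 370 distal regions (82.2%) were below that promoter median. Distal regions near another transcript start had a median of 4.42 CpG per 100 bp and those near none had 2.33. The observed over expected CpG ratio had a median of 0.513 in distal and 0.701 in promoter regions.

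PHF19 itself was recovered over distal regions in both libraries less often than over promoter regions. A PHF19 peak of both lists overlapped 204 distal regions (45.3%), beside 59.9% of all 1245 and 542 (68.2%) of the promoter regions. The replicate 1 list, with 1072 peaks, overlapped 237 distal regions (52.7%), and the replicate 2 list, with 14218, overlapped 406 (90.2%). For 11 distal regions neither list had a peak. The authors' mean log2 read concentration had a distal median of 6.01 in PHF19 ChIP and 4.43 in input, and the median difference was 1.54 (0.87 to 4.80), against 1.63 for promoter regions. These means are pooled over libraries and carry no SD. The regions had been listed by the authors for PHF19 over input, so an excess over input is part of how they were chosen.

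The shares of distal regions with each target are given beside list sizes that differ widely, so targets are not ranked by them. In replicates 1 and 2 the shCTR lists held 39254 and 15994 peaks for H3K27me3, 2060 and 1236 for EZH2, 1523 and 232 for SUZ12, and 2516 and 32254 for MTF2. H3K27me3 peaks of both shCTR lists covered 338 of 450 distal regions (75.1%), beside 82.8% of all PHF19 regions. EZH2 peaks of both lists were found over 103 (22.9%), beside 36.7% of all. SUZ12 peaks of both lists were found over 17 (3.78%), beside 4.90% of all, and MTF2 peaks of both shCTR lists over 213 (47.3%), beside 61.0% of all. With only peaks of a score of at least 100, the distal share was 14.2% for EZH2 and 1.11% for SUZ12.

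List by list, distal shares were below promoter shares for EZH2, H3K27me3 and MTF2. For EZH2 the replicate 1 list covered 34.0% of distal and 51.6% of promoter regions, and the replicate 2 list 38.2% and 67.8%. For H3K27me3 in shCTR the values were 83.3% and 90.4% in replicate 1, and 79.3% and 91.8% in replicate 2. For both targets each list gave a lower distal share than either list gave for promoter regions. For MTF2 in shCTR they were 48.0% and 68.7% in replicate 1, and 86.4% and 99.5% in replicate 2, so the lists differed by more than the classes did. For SUZ12 the lists gave opposite orders: 10.0% of distal and 7.67% of promoter regions in replicate 1, but 8.89% and 17.5% in replicate 2. The replicate 1 order rested on regions inside NPAS3, without which the distal share was 6.91%.

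The differences for EZH2, H3K27me3 and MTF2 were smaller, and that for SUZ12 changed sign, among regions where PHF19 itself had a peak in both lists. Of the 204 such distal regions, 179 (87.7%) carried H3K27me3 in shCTR, 85 (41.7%) EZH2, 17 (8.33%) SUZ12 and 136 (66.7%) MTF2. Their difference from promoter regions chosen in the same way was -2.29 percentage points for H3K27me3, -13.1 for EZH2, 0.40 for SUZ12 and -8.24 for MTF2, against -12.1, -21.6, -1.76 and -21.3 over all regions. All 17 distal regions that carried SUZ12 were among the 204.

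**Figure D1:**
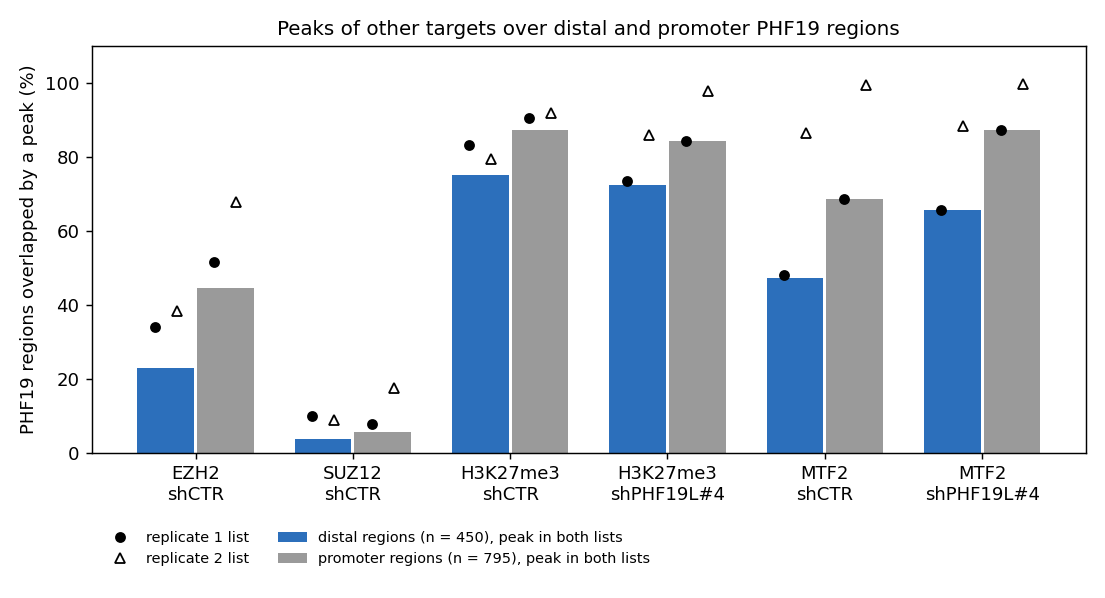
Share of PHF19 regions, in percent, overlapped by a peak of each target and condition. Bars give regions with a peak in both replicate lists, blue for 450 distal and grey for 795 promoter regions; circles and triangles give the replicate 1 and replicate 2 lists. Distal shares lie below promoter shares except for SUZ12 in replicate 1, where the order turns without the regions inside NPAS3.

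With a peak in both lists required, H3K27me3 came without EZH2 in 237 distal regions (52.7%) and with it in 101, beside 351 (44.2%) and 342 promoter regions. This order depended on the lists: with a peak in either list enough, the counts without and with EZH2 were 175 and 219 distal, and 164 and 592 promoter regions. They were 228 and 147 distal and 323 and 396 promoter regions in the replicate 1 lists, and 186 and 171 distal and 195 and 535 promoter regions in the replicate 2 lists. Of the 450 distal regions, 140 carried H3K27me3 alone among EZH2, H3K27me3 and MTF2 in shCTR, 98 carried all of these targets, 97 carried H3K27me3 with MTF2, and 94 carried none of them. Of the 795 promoter regions these were 152, 318, 199 and 71. A region with a peak in 1 list only counts here as not carrying the target. EZH2 of both lists came with H3K27me3 of both lists in 101 of 103 distal regions, and all 17 with SUZ12 of both lists also had EZH2 of both. H3K27me3 was carried by 230 of the 282 regions between protein-coding genes (81.6%) and by 108 of the 168 in gene bodies (64.3%). At a start distance under 10 kb it was carried by 112 of 134 regions (83.6%), and at 100 kb or more by 67 of 112 (59.8%). The regions inside NPAS3, described below, all count in gene bodies, and most lay at 100 kb or more. Without them 77.4% of distal regions carried H3K27me3, and their part in these contrasts was not tested.

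CpG-rich distal regions had EZH2, H3K27me3 and MTF2 peaks more often than CpG-poor ones in each list. The 103 with EZH2 had a median of 4.69 CpG per 100 bp and a median PHF19 excess over input of 1.90. The 56 with no H3K27me3 peak in either shCTR list had 1.43 CpG per 100 bp and an excess of 1.51. For EZH2 and H3K27me3 the contrast between poor and rich regions was larger in the replicate 2 lists. Below 1 CpG per 100 bp, EZH2 peaks overlapped 18 of 62 distal regions in replicate 1 and 2 of 62 in replicate 2. At 6 or more CpG per 100 bp they overlapped 32 and 52 of 75. MTF2 peaks in shCTR overlapped 16 and 41 of the 62 poorest regions, and 51 and 75 of the 75 richest. H3K27me3 overlapped 48 and 30 of the poorest, and 67 and 69 of the richest. SUZ12 differed between the lists, with 11 and 0 of the poorest and 9 and 22 of the richest. Without regions inside NPAS3 or with the repeated word described below, SUZ12 overlapped 3 and 0 of 54 poorest and 2 and 14 of 66 richest regions, and EZH2 12 and 2 of the 54 and 23 and 44 of the 66. Across distal regions with a value, the PHF19 peak score, in replicate 1 a whole number of unstated unit, and CpG density had a Spearman correlation of 0.49 over 237 regions in replicate 1 and 0.50 over 406 in replicate 2. Over promoter regions the values were -0.06 (547 regions) and -0.03 (790 regions). The points of each correlation share a library, and replicates 1 and 2 correlated at 0.75 over 204 distal regions. Peak scores also moved with region width (0.63 over 406 distal regions in replicate 2), whose part in this was not tested. The ChIP minus input difference had a correlation of 0.07 with CpG density over all 450.

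**Figure D2:**
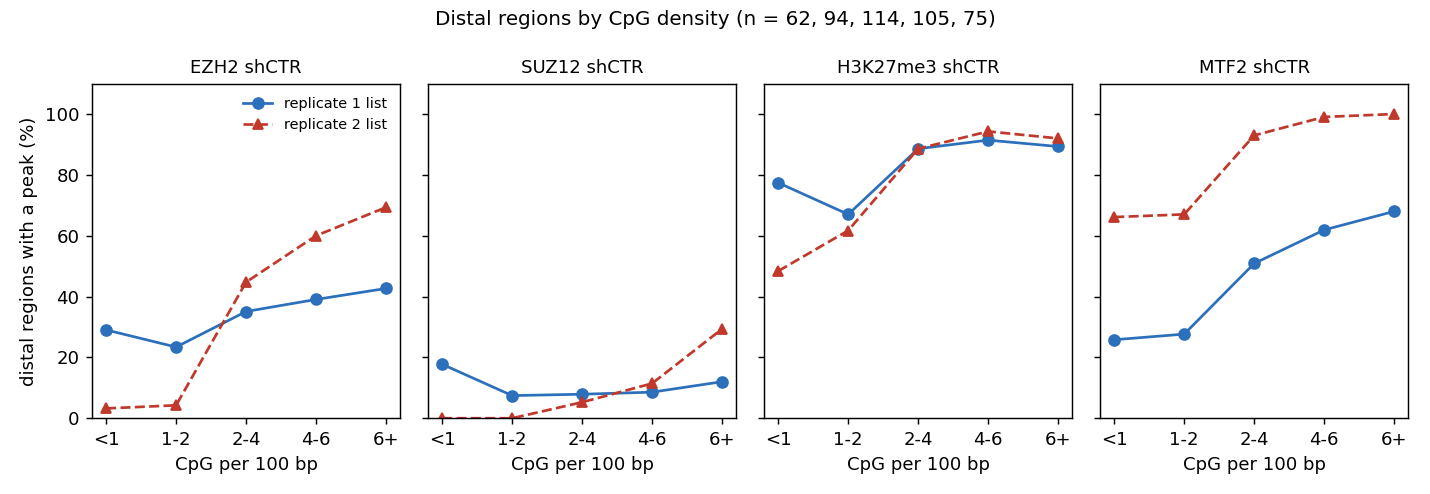
Share of distal regions with a peak, in percent, by CpG density of the region, for EZH2, SUZ12, H3K27me3 and MTF2 in shCTR. Blue circles are the replicate 1 list and red triangles the replicate 2 list; the bins hold 62, 94, 114, 105 and 75 regions. EZH2 goes from 2 of 62 to 52 of 75 regions in replicate 2, while replicate 1 keeps 18 of 62 in the poorest bin.

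A small group of distal regions, shown in the first set of sequences, stood out by a repeated sequence. The word AAAAAGCCGCGG was found at least 3 times, on either strand, in 10 distal regions and in no promoter region, which is 0.803% of all 1245 PHF19 regions. It was chosen after the sequences had been read, as the 12-base word with at least 2 CpG that the most distal regions held at least 3 times. Leading words of 13 and 14 bases were this word with 1 and 2 bases added, so that they are no separate finding. At 10 and 11 bases a triplet repeat led instead, with CCGCCGCCGC in 18 distal and 131 promoter regions and CCGCCGCCGCC in 11 and 108. A match is a description of the letters and not a binding site.

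The copies were stacked. The 10 regions held 5 to 42 copies each, all on 1 strand within a region, at a median spacing of 46 bp. They had a median of 10.9 CpG per 100 bp (5.71 to 13.0) and an observed over expected CpG ratio of 1.07, and all 10 lay between protein-coding genes, 26144 bp or more from a protein-coding start. With the starts of all annotated transcripts counted, non-coding ones too, 5 regions that held the word were still distal. Within 250 kb of an assembly gap were 7 of the 10, against 22 of all 450 distal regions.

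The 5 distal regions with the largest PHF19 excess over input included 4 of these 10. Nearest to FOXD4L5, a forkhead gene of a duplicated family, chr9:70151797-70152671 had an authors' mean of 5.55 in ChIP and 0.75 in input, a difference of 4.80. A region nearest to FOXD4L4 (chr9:70402710-70403555) had 6.95 and 2.54, and a further region, 390726 bp from FOXD4L5 (chr9:69785202-69788089), had 8.65 and 4.31. The ZNF92 region (chr7:64973817-64975667), 135023 bp from a zinc finger gene, had 8.76 and 4.44. The input means of the first 3 of these were below the distal median of 4.43, and the part of low input in the differences was not tested.

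All 10 had PHF19 and MTF2 peaks in both shCTR lists, and their median excess over input was 3.52. EZH2 peaks overlapped 10 in replicate 1 and 9 in replicate 2, SUZ12 peaks 8 and 9, and H3K27me3 peaks 8 and 9. They made up 8 of the 17 distal regions with SUZ12 in both lists; without them 9 of 440 distal regions (2.05%) had it. The NBPF16 region (chr1:148853892-148855952) had EZH2 scores of 953 and 3100, and SUZ12 scores of 283 and 616 in replicates 1 and 2. The value 3100 is the highest in that EZH2 list. It recurs exactly among replicate 2 scores, those of PHF19 included, and may be a ceiling rather than a measured score. It is not the highest value in every such list, as the PHF19 list of replicate 2 reaches 3200.17. At the FOXD4L5 region with 10 copies, by contrast, only EZH2 of replicate 1 had a peak among EZH2, SUZ12 and H3K27me3 in shCTR.

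The genome holds 46 clusters of at least 3 copies spaced up to 1000 bp, and 10 of them were overlapped by PHF19 regions, all distal. PHF19 peaks overlapped 10 clusters in replicate 1 and 12 in replicate 2, EZH2 peaks 10 and 11, and SUZ12 peaks 8 and 9. H3K27me3 peaks overlapped 10 and 9 in shCTR, and 12 and 18 in shPHF19L#4. MTF2 peaks overlapped 13 and 21 in shCTR, and 21 and 25 in shPHF19L#4. Reads that aligned to more than 1 place had been discarded by the authors, and the part of this in which clusters had peaks was not tested.

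**Figure D3:**
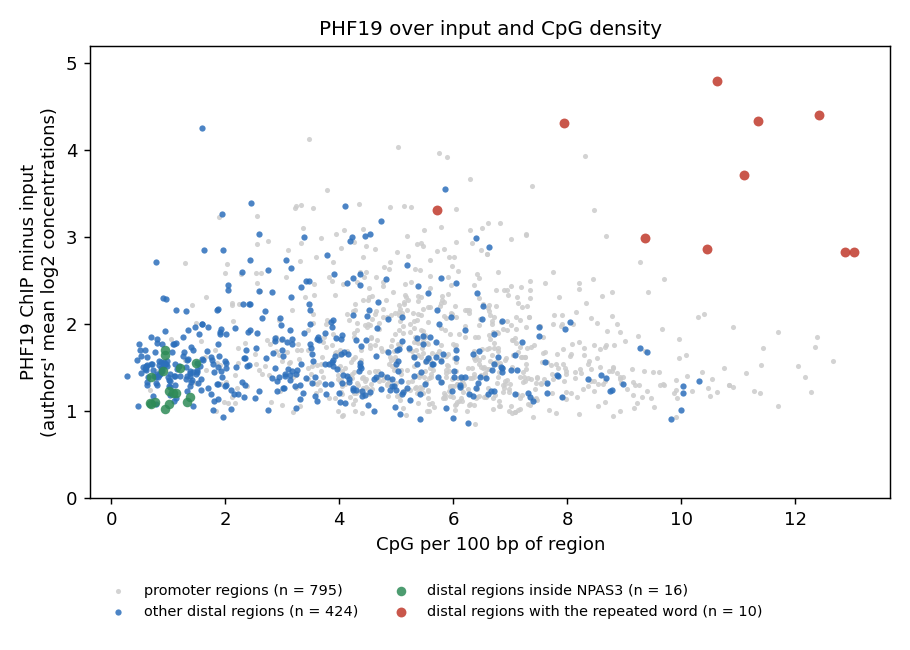
Difference between the authors' mean log2 concentrations of PHF19 ChIP and input (vertical axis) against CpG per 100 bp (horizontal axis), a point per region. Red points are the 10 distal regions with the repeated word, green the 16 inside NPAS3, blue the other 424 distal and grey the 795 promoter regions. The red points lie at differences of 2.83 to 4.80 and the green ones at 1.03 to 1.70.

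Of the 8 distal regions with the largest excess over input, 5 held the word and 3 did not. The region nearest to ZIC2 (chr13:100647204-100648961), a zinc finger factor of neural development, had an authors' mean of 7.22 in ChIP and 2.96 in input with 1.59 CpG per 100 bp. H3K27me3 peaks of both lists covered it, and EZH2 only in replicate 1. LMX1B, a LIM homeobox gene, had a region 94592 bp away (chr9:129278681-129281615) with 8.35 and 4.96 and EZH2 peaks in both lists. The 3 most CpG-rich distal regions all held the word: 13.0 and 12.9 per 100 bp in a pair nearest to RP11-685N3.1 (chr2:91669716-91671372 and chr2:90448321-90451279), and 12.4 at FOXD4L4. The 3 poorest were the PTPN3 intron (chr9:112186319-112187419) at 0.272, a region nearest to NFE2L3 (chr7:25908116-25910794) at 0.448 and one nearest to SPRR2G (chr1:153105447-153107129) at 0.475. The PTPN3 region had no peak of the other targets in any list, while the NFE2L3 and SPRR2G regions had H3K27me3 peaks in both shCTR lists.

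Among the 8 distal regions with SUZ12 in both lists and the largest excess over input, 2 did not hold the word. They were a region between protein-coding genes nearest to CHD7 (chr8:61820866-61823764), a chromatin remodeller gene, with SUZ12 scores of 73.4 and 73.7, and one over a coding exon of VGLL2 (chr6:117590666-117592743), a transcription cofactor gene, with 58.6 and 60.3. The other 6 included regions nearest to ANKRD30BL (chr2:132767076-132768283 and chr2:132795378-132796658), with SUZ12 scores of 88.9 and 132 and of 90.4 and 107.

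Distal regions also came in runs. With neighbours at most 50 kb apart, 47 runs held 123 of the 450 regions (27.3%). The longest had 9 regions over 173 kb in NPAS3, a gene of a brain transcription factor. Named by host gene or nearest start, runs of 5 were those of SOX2, within the long non-coding RNA gene SOX2-OT, of HLA-E, a histocompatibility gene, and of SCAND3 and TRIM27. Runs of 4 were those of ZIC5 and ZIC2 and of NFE2L3. In these runs of 4 or 5, H3K27me3 peaks of both shCTR lists covered every region, 5 of 5 at SOX2, 5 of 5 at HLA-E, 5 of 5 at SCAND3 and TRIM27, 4 of 4 at ZIC5 and ZIC2 and 4 of 4 at NFE2L3. EZH2 of both lists covered 3 at SOX2, 1 at HLA-E, 1 at SCAND3 and TRIM27, 0 at ZIC5 and ZIC2 and 1 at NFE2L3.

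The NPAS3 gene body held 16 distal regions, all intronic, with a median of 0.981 CpG per 100 bp. Its EZH2, SUZ12 and H3K27me3 peaks in shCTR came mostly from the replicate 1 lists. EZH2 peaks of replicate 1 overlapped 13 of the 16 and those of replicate 2 overlapped 0, and SUZ12 peaks overlapped 15 and 0. H3K27me3 in shCTR overlapped 14 and 2, and in shPHF19L#4 3 and 3. MTF2 in shCTR overlapped 13 and 13, and PHF19 3 and 13. The median of the widest H3K27me3 peak over them in replicate 1 was 59530 bp, against 7378 bp in distal regions outside NPAS3. The region of 9788 bp (chr14:34173654-34183441), the widest distal region, had EZH2 and SUZ12 scores of 273 and 210 in replicate 1 and no peak of either in replicate 2. PHF19 excess over input had a median of 1.21 in these 16, and input per kb on the log2 scale had a median of 3.87, against 3.55 in distal regions outside NPAS3. The part of input in the peaks was not tested. The regions inside NPAS3 made up 15 of the 45 distal regions with SUZ12 in replicate 1.

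**Figure D4:**
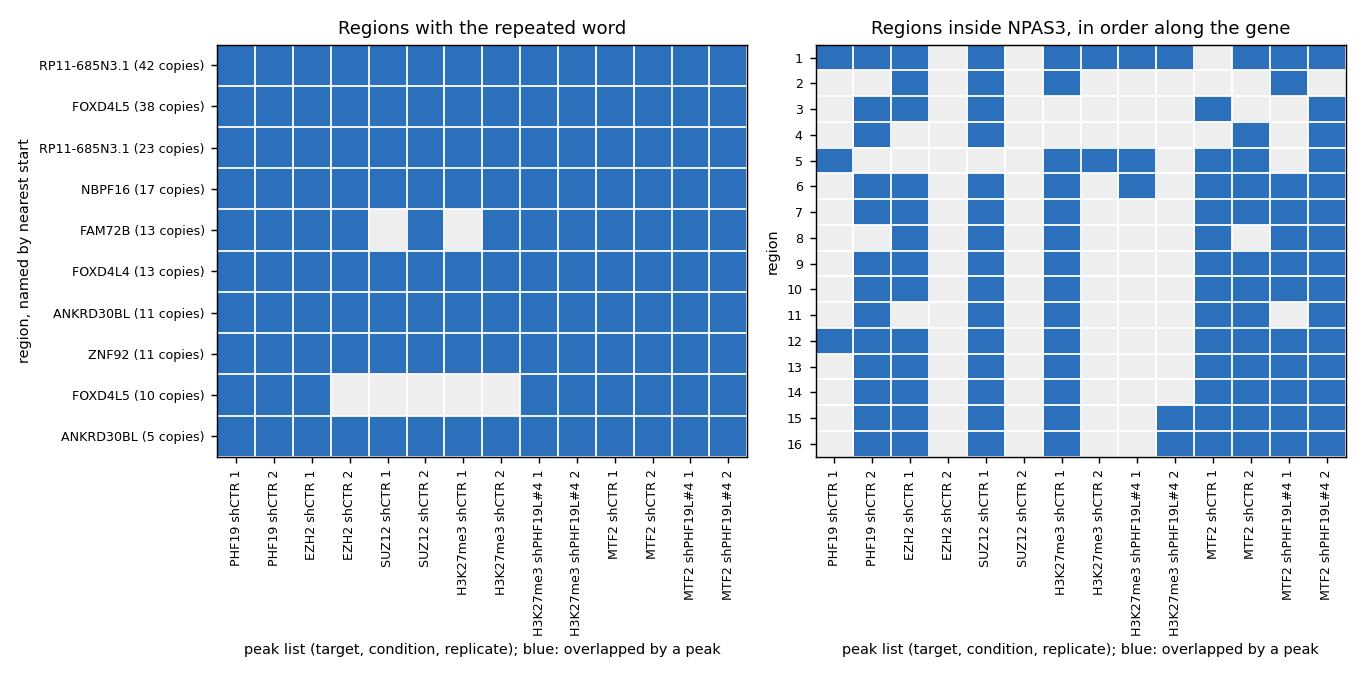
Peak lists, by target, condition and replicate, that overlap each of the 10 regions with the repeated word (left, with the copies of the word) and each of the 16 regions inside NPAS3 (right); blue is a peak. SUZ12 of replicate 1 overlaps 8 regions on the left and 15 on the right, and SUZ12 of replicate 2 overlaps 9 and 0.

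Other named regions ran as follows. The next widest were 6979 bp nearest to VAX1 (chr10:118920045-118927023) and 6864 bp over a coding exon of UNCX (chr7:1276198-1283061), both homeobox genes, with EZH2 peaks in both lists. The 4 regions whose nearest start was that of EPHB3, 35259 to 68789 bp away, had H3K27me3 peaks in both lists, and 3 had EZH2 in both. The EPHB3 region of the sequence above had a PHF19 replicate 1 value of 90, a replicate 2 score of 943, and EZH2 scores of 232 and 311. At the other end, 32 distal regions (7.11%) and 2 promoter regions had no EZH2, SUZ12, H3K27me3 or MTF2 peak in any list. The largest excess over input among the 32 was 2.01, over a coding exon of SUN1 (chr7:891786-892851). Introns of ZNF704 (chr8:81614678-81615836) and TCF7L2 (chr10:114906892-114908196) had 1.97 and 1.89. Regions between protein-coding genes nearest to DACT1 (chr14:59294096-59295506) and SHCBP1 (chr16:46671701-46672841) had 1.91 and 1.79. A PHF19 peak of both lists overlapped 2 of the 32, and their median CpG density was 1.26 per 100 bp.

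In shPHF19L#4, MTF2 peaks of both lists overlapped 295 distal regions (65.6%), beside 79.4% of all PHF19 regions. Between conditions the replicate 1 list went from 216 to 296 distal regions and the replicate 2 list from 389 to 397. Distal shares went from 48.0% to 65.8% and from 86.4% to 88.2%, and promoter shares from 68.7% to 87.3% and from 99.5% to 99.7%. The number of peaks in these lists went from 2516 to 4216 and from 32254 to 34623. In replicate 1, 90 distal regions had a peak in shPHF19L#4 only and 10 in shCTR only, and in replicate 2 these were 16 and 8. Over promoter regions the counts were 155 and 7, and 2 and 0. No distal region had MTF2 in neither shCTR list and both shPHF19L#4 lists, and none had it in both shCTR lists and neither shPHF19L#4 list. For promoter regions these were 1 and 0. The shCTR list of replicate 2 already overlapped 389 distal regions, which left few that could appear in the shPHF19L#4 lists alone.

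The number of regions with an H3K27me3 peak moved in opposite directions in the replicates, over distal and promoter regions alike. Peaks of both shPHF19L#4 lists overlapped 326 distal regions (72.4%), beside 80.0% of all. Distal regions with a peak went from 375 to 331 in replicate 1 and from 357 to 387 in replicate 2, as the lists went from 39254 to 35128 and from 15994 to 57026 peaks. Promoter shares went from 90.4% to 84.3% and from 91.8% to 97.9%. The part of list size in these counts was not tested. The study reports that H3K27me3 signal, scaled by fly spike-in reads, rose after depletion in both replicates. That signal is a different measure from the peak counts given here, which carry no stated spike-in scaling.

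The authors' tables of shCTR against shPHF19L#4 list only regions that passed their own threshold, so being listed is their selection, and the values are pooled means with no stated spike-in scaling. The EZH2 table listed 255 distal regions (56.7%), beside 75.6% of all PHF19 regions, and that of MTF2 listed 249 (55.3%), beside 73.3%. The SUZ12 table listed 73 (16.2%), beside 31.5%, and that of H3K27me3 listed 8 (1.78%), beside 2.65%. Among the listed distal regions the median of the authors' mean log2 concentration was 6.96 in shCTR and 7.92 in shPHF19L#4 for EZH2, and 8.34 and 9.08 for MTF2. It was 6.58 and 7.49 for SUZ12, and 7.62 and 8.65 for H3K27me3. Every listed region, distal or promoter, had the higher mean in shPHF19L#4 for all 4 targets. One of the header lines in these tables names the second column input, and the line directly over the data, used here, names it the knockdown.

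Genes with a distal region, as host or as nearest start to a region between protein-coding genes, were 354 of 20149 protein-coding genes (1.76%). Transcription factor families of development stood at higher shares: 48 of 171 homeobox genes outside the HOX clusters (28.1%), 7 of 20 SOX genes (35.0%), 3 of 6 GATA factor genes, 9 of 52 forkhead genes, 3 of 17 T-box genes and 5 of 47 tissue-specific bHLH genes. The forkhead genes include FOXD4L4 and FOXD4L5, counted only through regions with the repeated word, and the bHLH genes include NPAS3. No test of these shares was made. Homeobox members included PAX7, a muscle lineage factor, EN2, OTX2 and SIX2; SOX members included SOX2 and SOX9. Among signalling genes there were 2 of 10 Hedgehog pathway genes, SHH and DHH, and 1 of 22 Eph and ephrin genes, EPHB3. Among other lists, shares near that over all genes were found for 9 of 508 zinc finger ZNF genes (1.77%), 5 of 384 solute carrier genes (1.30%) and 1 of 94 potassium channel genes (1.06%). Of 20 hypoxia and angiogenesis genes 1 had a distal region, EGLN3, a prolyl hydroxylase gene. No member had one in 6 lists, with 0 of 39 HOX, 0 of 44 WNT, 0 of 29 BMP and GDF, 0 of 66 protocadherin, 0 of 24 dual-specificity phosphatase and 0 of 10 CDK inhibitor genes. In lists of these sizes a count of 0 is near the 1.76% over all genes. Of the 48 homeobox genes, 31 also had the start nearest to a promoter PHF19 region, beside 96 of all 354 genes with a distal region, 3 of the 7 SOX genes and 4 of the 9 forkhead genes.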

How the data were processed

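The study measured PHF19, EZH2, SUZ12, H3K27me3 and MTF2 by ChIP-seq in DU145 cells. According to the study's methods, the authors aligned reads with Bowtie to hg19, or to hg19 joined with the fly genome dm3 where spike-in was added, kept uniquely mapped reads only and ran MACS separately for the replicates. Versions of these tools are not given in the sources used here. In the deposited lists each peak has a score, which for the PHF19 list of replicate 1 is a whole number whose unit is not stated, and no value accompanies the MTF2 peaks of replicate 1. The deposited DiffBind tables give the mean log2 read concentration of each group, pooled over replicates. No spike-in scaling is stated for the peak lists. The fold, p-value and FDR columns of the DiffBind tables hold the authors' own comparisons and were not used. The study describes its 2 ChIP-seq replicates as biological and independent, and how they were made separate is not stated in the sources used here.

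Regions were placed on GENCODE release 44 mapped to hg19, and sequence was read from GRCh37. Start sites of basic protein-coding transcripts gave 450 distal regions, of all protein-coding transcripts 432, of canonical ones 519 and of all annotated transcripts 274. The basic set was kept after these counts were seen, because the rule speaks of about that many. Named regions followed a rule: the largest excess over input, the highest and lowest CpG density, SUZ12 in both lists, MTF2 gained or lost, the widest, the longest runs, EPHB3, no peak of another target, and the nearest to the limit. The repeated word, its length, the minimum of 3 copies and the regions inside NPAS3 were chosen after sequences and values had been seen, and 5 word lengths, from 10 to 14 bases, were tried. Members and lists were chosen with earlier results of these data known. Alternatives changed the promoter limit, the transcripts, the overlap, the peak score, the replicates and the PHF19 peaks required. Interval counting was tested on simulated data. Python 3.11.15, numpy 2.4.6, scipy 1.17.1, pysam 0.24.0, samtools 1.23.1 and matplotlib 3.10.9 were used.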

Additional observations from a re-analysis of the deposited data

How the results depend on the processing

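No paired analysis was possible because the results are counts and shares that come from no test. Chosen after seeing the data were the other protein-coding transcript sets, the leave-outs of regions with the repeated word and inside NPAS3, and everything on the word, gene bodies and the authors' tables.

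With 1 replicate list left out, the share of distal regions ranged from 79.3% to 83.3% for H3K27me3 in shCTR, 73.6% to 86.0% for H3K27me3 in shPHF19L#4, 34.0% to 38.2% for EZH2, 8.89% to 10.0% for SUZ12, 48.0% to 86.4% for MTF2 in shCTR and 65.8% to 88.2% for MTF2 in shPHF19L#4. The distal minus promoter difference ranged from -12.5 to -7.11 points for H3K27me3, -29.6 to -17.6 for EZH2, -8.60 to 2.33 for SUZ12 and -20.7 to -13.1 for MTF2, so SUZ12 changed sign.

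With a peak in either list enough, shares were 87.6% for H3K27me3 in shCTR, 87.1% in shPHF19L#4, 49.3% for EZH2, 15.1% for SUZ12, 87.1% for MTF2 in shCTR and 88.4% in shPHF19L#4, and differences were -7.54 points for H3K27me3 and -12.4 for MTF2. With merged peaks H3K27me3 in shCTR was 78.2%. With 50 percent of the region covered it was 72.0% and SUZ12 2.89%, with a SUZ12 difference of -0.004 points. At a score of at least 100, H3K27me3 was 69.1%, EZH2 14.2% with a difference of -11.4, and SUZ12 1.11%.

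With only regions that had PHF19 peaks in both lists, H3K27me3 was 87.7% in shCTR and 84.3% in shPHF19L#4, EZH2 41.7%, SUZ12 8.33% and MTF2 in shPHF19L#4 83.8%. Differences were -2.29 points for H3K27me3, -13.1 for EZH2, 0.40 for SUZ12, which again changed sign, and -8.24 for MTF2. The median ChIP minus input was 1.73 and the median CpG density 4.39. The cause was not tested for any of these changes.

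Away from every annotated start, 274 regions were left, with H3K27me3 in shCTR at 71.2%, EZH2 18.2%, SUZ12 2.55%, a median of 2.33 CpG per 100 bp and 5 regions with the word. Without the word's regions SUZ12 was 2.05%. A leading word of 10 bases was held by 18 regions. Other transcript sets gave 432 distal regions for all protein-coding and 519 for canonical transcripts. Of 201 values under alternatives, 79 of the planned and 72 of the added ones moved by less than the spread between replicates, a 95% binomial interval or 1.5 times a count. A further 41 planned and 7 added values moved by more, and 2 planned ones changed sign. The spread came from the same 2 lists as the values with 1 list left out. For MTF2 in shCTR it was 27.2 points to either side, so staying within it says little. The score minimum was not applied to MTF2, because its replicate 1 lists hold no score.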

Other observations

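H3K27me3 peaks over distal regions had a larger median width than those over promoter regions in both shCTR lists. The widest overlapping shCTR peak had a median of 7825 bp in replicate 1 and 3625 bp in replicate 2, against 6155 and 3482 bp over promoter regions. The H3K27me3 lists differ in size, with 39254 and 15994 peaks, and the part of this in the widths was not tested.

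Distal shares differed among chromosomes. On chromosome 14, which holds NPAS3 and its 16 distal regions, 40 of 75 PHF19 regions (53.3%) were distal, and their median was 1.11 CpG per 100 bp. On chromosome 11 the count was 12 of 59 (20.3%), with 4.03 CpG per 100 bp. These are values with no test.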
